A study of Mus musculus with 6 samples.

Results

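Glycolysis splits glucose to pyruvate in the cytosol, and glycogen is the branched glucose store from which muscle can feed it. The genes described here are 31 transporters, enzymes and subunits of these routes, chosen by symbol, in hearts of FvB mice measured on 6 Illumina bead arrays. The arrays named 26 of the 31, out of 19057 genes with a probe of 1 symbol, and each gene was read from its brightest probe. Hk2, Gpi1, Eno1, Pfkfb1 and G6pdx had no named probe in the annotation used here and were not analysed. Of the 26 genes, 24 lay above the intensity filter of 58.7, the median of all probes with a symbol. The other two, Aldoc and Pgm2, lay below it, at mean log2 intensities of 5.68 and 5.38.

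The 4 groups were wild-type mice after sham surgery (1 array), wild-type mice after thoracic aortic constriction (TAC, 2 arrays), JMJD2A-transgenic mice after sham surgery (1 array) and JMJD2A-transgenic mice after TAC (2 arrays). TAC narrows the aorta with a band and loads the left ventricle with pressure. The transgene, described as heart specific, encodes JMJD2A, a histone demethylase; its promoter and founder lines are not named in the labels used here. All mice share the FvB background, an age labelled as 8 weeks (the series' design text counts it in years) and harvest 3 weeks after surgery. Whether an array holds 1 animal or several is not in the labels, and a p-value here therefore covers array-to-array spread that may be partly technical.

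The adult heart takes most of its energy from fatty acids and draws on glucose through the insulin-regulated transporter GLUT4 (Slc2a4) and the constitutive transporter GLUT1 (Slc2a1). Hexokinase traps glucose in the cell, phosphofructokinase commits it to glycolysis, and enolase and pyruvate kinase complete the payoff phase. Glycogen is built by glycogen synthase and branching enzyme and broken down by glycogen phosphorylase, which phosphorylase kinase switches on. Several steps have muscle isoforms (Pfkm, Pgam2, Eno3, Pygm, Phka1, Phkg1) beside more widely expressed ones.

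The mouse gene of JMJD2A, Kdm4a, read 6.51 to 6.70 on wild-type and 6.45 to 6.75 on transgenic arrays, a difference of 0.01 ± 0.12 (standard error, SE). Whether its probe lies in the part the transgene carries is not stated, so it does not check the genotype labels, and "transgenic" below means labelled so.

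All values below are log2 intensities of the deposited, already normalized table unless a fold or a summed intensity is named. The array median stood at 5.82 on this scale, and brightness differs by probe, so no gene's level is set against another's. Cardiomyocyte markers were present: 11 of 11 measured markers lay above the filter, with summed intensities of 160429 to 174768. Of 9 skeletal muscle markers 5 did, and Myh1, Myh4, Tnnt3 and Tnnc2, among them 2 fast skeletal myosins, did not. Xist, expressed in female cells, read 5.38 in wild-type TAC 2, 5.41 in transgenic sham and 10.36 to 11.03 elsewhere; sex is not among the labels. The transgenic TAC arrays differed most between replicates, with an SD of the log2 difference over all tested genes of 0.39, against 0.25 for the wild-type TAC arrays.

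Promoter sequence is shown for 4 of these genes: Phkg1 and Eno3, which lay lower after TAC, Pfkfb2, which lay higher in transgenic arrays, and Ldha, a textbook target of hypoxia signalling. The sequences are RefSeq's, build GRCm38.p6, and give the 250 bases before the transcription start, 5′ to 3′ on the gene's strand, from the first listed start where a gene has several. Capitals mark ACGTG or GCGTG, the core bound by hypoxia-inducible factors, on either strand; CACGTG, an E-box, contains that core on both strands.
Phkg1 (chr5:129879089-129879338, strand -): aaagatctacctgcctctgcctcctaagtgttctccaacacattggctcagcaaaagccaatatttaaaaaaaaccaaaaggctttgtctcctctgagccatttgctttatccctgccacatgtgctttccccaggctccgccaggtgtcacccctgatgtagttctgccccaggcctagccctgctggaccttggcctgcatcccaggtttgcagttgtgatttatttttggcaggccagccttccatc
Eno3 (chr11:70656926-70657175, strand +): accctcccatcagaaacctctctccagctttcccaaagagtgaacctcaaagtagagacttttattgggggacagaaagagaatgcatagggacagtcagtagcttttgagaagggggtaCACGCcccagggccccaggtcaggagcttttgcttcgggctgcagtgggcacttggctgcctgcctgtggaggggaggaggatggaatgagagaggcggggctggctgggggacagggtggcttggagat
Pfkfb2 (chr1:130715822-130716071, strand -): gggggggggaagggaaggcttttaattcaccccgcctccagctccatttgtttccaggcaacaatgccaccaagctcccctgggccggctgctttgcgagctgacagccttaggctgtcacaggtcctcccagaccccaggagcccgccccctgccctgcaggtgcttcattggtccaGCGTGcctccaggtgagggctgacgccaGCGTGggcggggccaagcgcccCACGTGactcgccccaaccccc
Ldha (chr7:46845554-46845803, strand +): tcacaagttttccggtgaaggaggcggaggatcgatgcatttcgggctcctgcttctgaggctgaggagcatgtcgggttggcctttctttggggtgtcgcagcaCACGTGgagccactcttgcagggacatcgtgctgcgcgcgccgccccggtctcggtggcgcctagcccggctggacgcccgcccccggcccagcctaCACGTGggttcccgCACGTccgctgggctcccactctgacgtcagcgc

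The printed stretch of Phkg1 held no core and that of Eno3 held 1, at position -130 from the start. Pfkfb2 had 4 matches, 1 E-box counting as 2 of them, and Ldha had 5, with 2 E-boxes. Over windows of 250 bases before to 50 after each start, 24 of the 30 listed genes with a window (80.0%) held at least 1 core. The same was true of 46.7% of the 27025 genes in the table. Among genes with exactly 1 window the shares were 14 of 20 (70.0%) and 43.1%. An E-box was in the windows of 3 of the 30, against 8.1% of all genes. Base composition was not matched, and a match is a description of letters, not a binding site.

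Between arrays, the 24 tested genes varied by 0.15 (Aldoa) to 1.72 (Pfkp) from lowest to highest, with a median range of 0.61 beside 0.47 over the 11167 genes tested. Among the smallest ranges were those of 4 enzymes of the middle of glycolysis. Aldoa, the muscle aldolase, lay at 13.73 to 13.89, Gapdh at 13.73 to 13.94, Pgam2, the muscle phosphoglycerate mutase, at 13.39 to 13.63, and Tpi1, triose phosphate isomerase, at 13.80 to 14.08. The transporter Slc2a4, hexokinase 1 (Hk1), the platelet phosphofructokinase Pfkp, Pfkfb2, the heart-type lactate dehydrogenase subunit Ldhb and Phkg1 spread over more than 0.8 each.

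**Figure D1:**
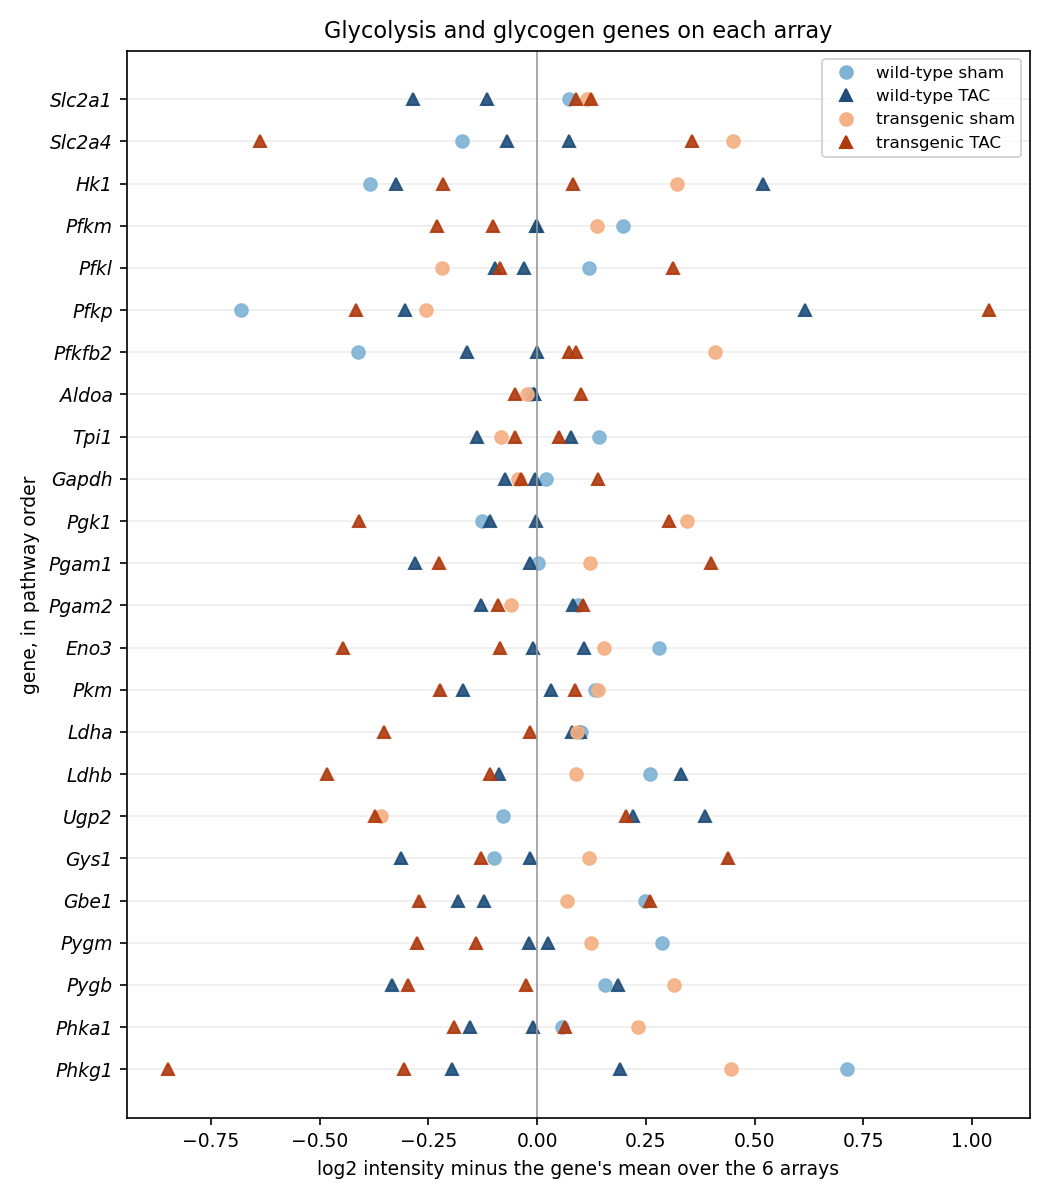
Log2 intensity of the 24 tested genes on each of the 6 arrays, shown as the distance from each gene's own mean (x axis), in pathway order from glucose uptake to glycogen breakdown (y axis); circles are sham and triangles TAC arrays, blue wild type and orange transgenic. Aldoa and Gapdh stay within 0.22 log2 units from lowest to highest, whereas Pfkp spans 1.72 and Phkg1 1.56, with both sham arrays of Phkg1 above all TAC arrays.

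TAC against sham over both genotypes asks what pressure overload changed. Genes of glycogen breakdown (Phkg1, Pygm) and muscle isoforms of glycolysis (Pfkm, Eno3) stood lowest against sham relative to their error, by 0.25 to 0.87, and Gapdh, Aldoa and Pgam2 stood within 0.03 of sham. No gene of the 24 passed the test (0 of 24 at an adjusted p of 0.05 in limma; 0.00895% of all tested genes passed, a single gene, Acta1). Of the 24, 17 lay lower after TAC and 7 higher, with a median difference of -0.14; over all genes 51.4% lay lower and the median was -0.01. At an unadjusted p under 0.05 there were 4 lower genes and no higher one, where 4.5% of all genes were lower and 4.76% higher. In 5 of 24 genes, Phkg1, Pfkm, Eno3, Pygm and Pkm, all 4 TAC arrays lay below both sham arrays, and in none above; over all genes these shares were 8.16% and 8.39%. The median was -0.05 without transgenic TAC 2 and -0.24 without wild-type sham, the extremes over the alternatives tried. Without wild-type sham the difference between surgeries rests on the transgenic arrays alone.

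Phkg1, the catalytic subunit of muscle phosphorylase kinase, stood furthest from sham. Its arrays stood at 8.13 (wild-type sham), 7.61 and 7.22 (wild-type TAC), 7.86 (transgenic sham) and 7.11 and 6.57 (transgenic TAC). The TAC arrays were all below the sham arrays and did not overlap with them, and the transgenic TAC pair was below the wild-type TAC pair. The difference was -0.87 ± 0.20 (SE, 4 TAC against 2 sham arrays, 95% interval -1.32 to -0.42, adjusted p = 0.274), a 1.83-fold lower level. Under the alternatives tried it lay between -1.14 and -0.52, with adjusted p from 0.0668, without transgenic TAC 1, upward. Without both arrays of low Xist it was -0.52. No transgenic sham array is left there, so this value is wild-type TAC 1 against wild-type sham, 1 array each. It was -0.72 ± 0.31 within wild type and -1.02 ± 0.31 within transgenic arrays.

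Pygm, muscle glycogen phosphorylase, the enzyme that phosphorylase kinase activates, read 10.45 in wild-type sham, 10.19 and 10.15 in wild-type TAC, 10.29 in transgenic sham, and 10.03 and 9.89 in transgenic TAC. The 2 sham arrays were the highest. The difference was -0.31 ± 0.13 (adjusted p = 0.513). Pygb, the brain-type phosphorylase that the heart also expresses, stood at -0.35 ± 0.16 (adjusted p = 0.546), from 12.24 in wild-type sham and 12.40 in transgenic sham to 11.75 and 12.27 in wild-type TAC and 12.06 and 11.79 in transgenic TAC. Here wild-type TAC 2 overlapped with sham. Phka1, the muscle regulatory subunit of phosphorylase kinase, was at -0.22 ± 0.13 by its brightest probe, while 2 dimmer probes above the filter gave -0.01 and 0.12.

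On the side of glycogen building, Ugp2, which makes UDP-glucose, lay higher after TAC at 0.33 ± 0.17 (adjusted p = 0.594). Its arrays read 11.07 in wild-type sham, 11.54 and 11.37 in wild-type TAC, 10.79 in transgenic sham, and 11.36 and 10.78 in transgenic TAC, so transgenic TAC 2 stayed at the sham level. Gys1, muscle glycogen synthase, was at -0.02 ± 0.16 and the branching enzyme gene Gbe1 at -0.24 ± 0.15, both dim, with means of 6.29 and 6.07 beside the filter at 5.88.

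Among the glycolytic enzymes, Pfkm, the muscle phosphofructokinase, read 13.96 in wild-type sham, 13.76 on both wild-type TAC arrays, 13.90 in transgenic sham, and 13.66 and 13.53 in transgenic TAC. All TAC arrays were below both sham arrays, and the difference was -0.25 ± 0.09 (adjusted p = 0.443). A second bright Pfkm probe gave -0.22. Eno3, muscle enolase, read 14.13 and 14.00 in wild-type and transgenic sham, 13.84 and 13.95 in wild-type TAC, and 13.76 and 13.40 in transgenic TAC. Again no TAC array reached a sham array, with a difference of -0.33 ± 0.12 (adjusted p = 0.447). Pkm, pyruvate kinase of muscle and other tissues, stood at 13.31 and 13.32 in sham and at 12.96 to 13.27 in TAC, a difference of -0.21 ± 0.12 (adjusted p = 0.643).

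The lactate dehydrogenase subunit genes overlapped between surgeries. Ldha was at 13.37 and 13.36 in sham and 12.91 to 13.36 in TAC (-0.14 ± 0.12), and Ldhb at 7.34 and 7.17 in sham and 6.59 to 7.41 in TAC (-0.26 ± 0.18). For Gapdh the difference was 0.02 ± 0.10 (95% interval -0.20 to 0.23), for Aldoa 0.03 ± 0.09 (-0.17 to 0.23) and for Pgam2 -0.02 ± 0.11 (-0.27 to 0.22). Slc2a4 read 9.88 in wild-type sham, 10.13 and 9.98 in wild-type TAC, 10.50 in transgenic sham, and 10.41 and 9.42 in transgenic TAC, so transgenic arrays held both its highest and its lowest value. The transporters Slc2a1 (-0.14 ± 0.15) and Slc2a4 (-0.21 ± 0.27) and Hk1 (0.05 ± 0.27) overlapped between surgeries, and Pgk1 and Pgam1 (-0.16 ± 0.20 and -0.09 ± 0.20) did too.

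Pfkp, the platelet-type phosphofructokinase, had the largest positive difference, 0.70 ± 0.38, and the widest interval, -0.15 to 1.55. It read 8.80 in wild-type sham, 10.10 and 9.18 in wild-type TAC, 9.22 in transgenic sham, and 10.52 and 9.06 in transgenic TAC. Only TAC 1 of each genotype stood clear of both sham arrays. A second Pfkp probe gave 0.35. Pfkl, the liver type, was at 0.07 ± 0.16 by its brightest probe and at -0.21 by a dimmer one.

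Markers of the cell types a heart holds were set beside these values. The 7 fibroblast markers measured all lay higher after TAC, none past the test, with summed intensities of 16401 and 18028 in sham and 18701 to 25394 in TAC. Summed cardiomyocyte markers were 164619 to 166910 in sham and 160429 to 174768 in TAC, and 6 of 11 lay higher. At an unadjusted p under 0.05 in limma 3 of the 11 were lower and 0 higher, beside 4.5% and 4.76% of all genes. For 2 of them, Ryr2 and Tnni3, all TAC arrays lay below both sham arrays, beside 8.16% of all genes. Ryr2 read 12.35 and 12.24 in sham and 11.68 to 12.11 in TAC. No cardiomyocyte marker passed the test. Summed skeletal muscle markers were 566 to 648 in sham and 540 to 637 in TAC. Of the 5 above the filter 4 lay lower and 1 higher (median -0.04), none past the test. There 1 was lower at an unadjusted p under 0.05 in limma and 1 lower without overlap, beside 4.5% and 8.16% of all genes. The one without overlap was Tnni2, at 7.01 and 6.86 in sham and 6.34 to 6.73 in TAC. All 5 endothelial markers above the filter lay higher after TAC (median 0.23), none past the test. The 4 atrial markers lay higher, none past the test, with sums of 10659 and 15812 in sham and 21163 to 29123 in TAC. Nppa, atrial natriuretic peptide, carries most of these sums. Myl7, Sln and Myl4 stood apart on wild-type TAC 1, where they read 9.09, 10.50 and 12.48; the other arrays read 5.44 to 7.15, 5.95 to 8.09 and 8.85 to 10.80, and transgenic TAC 1 lay below transgenic sham for each of them. No marker is at 0 in a table whose lowest intensity is 30.83. The part of these markers in the glycolysis differences was not tested, and in whole heart RNA fewer cells of a type and less RNA per cell cannot be told apart.

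**Figure D2:**
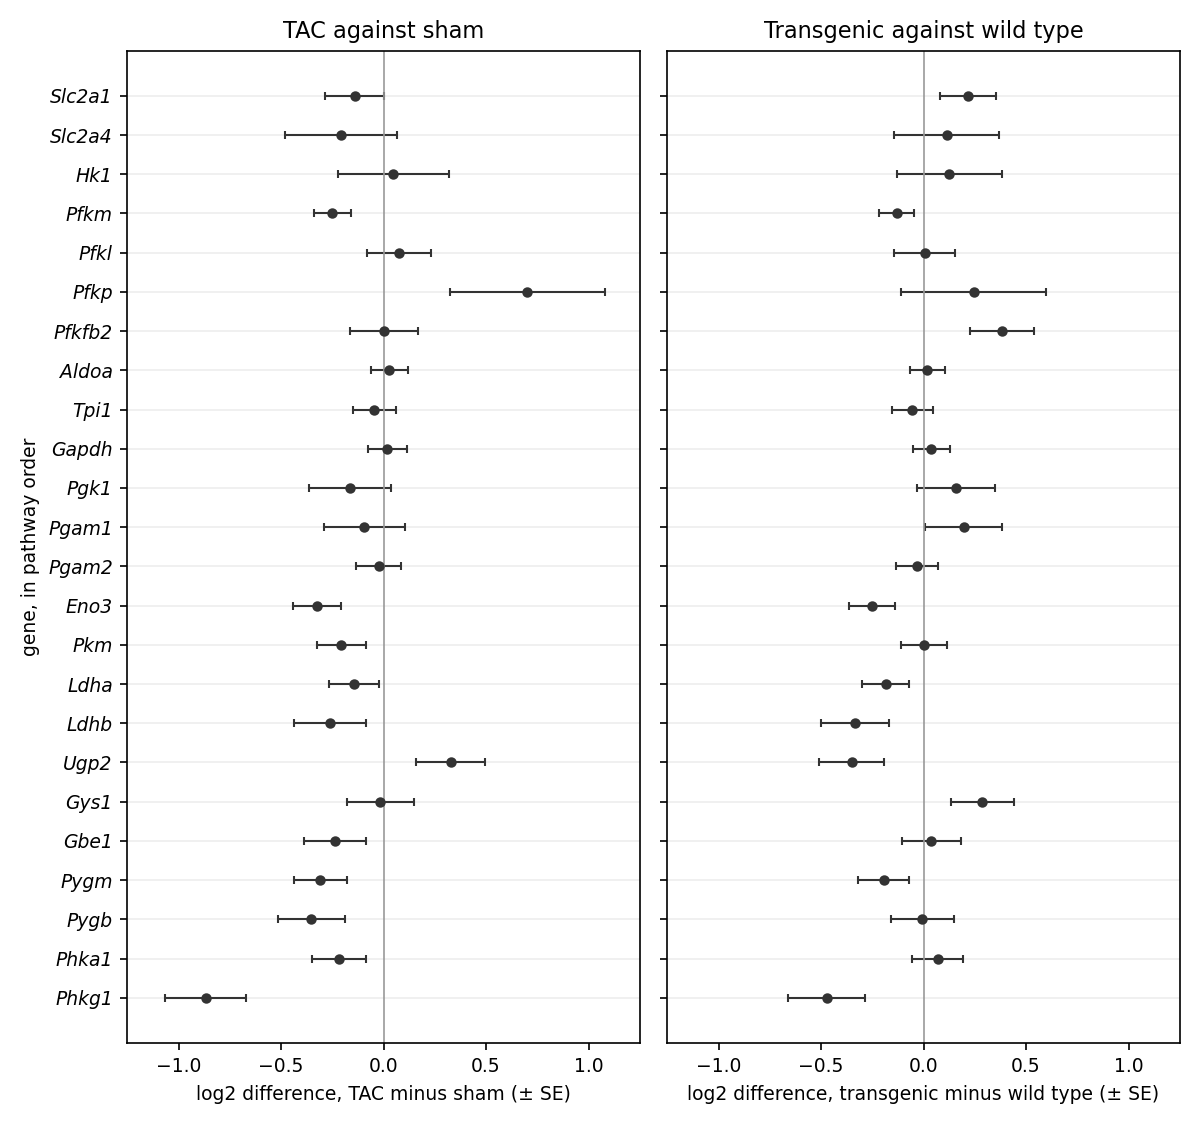
Log2 differences of the 24 tested genes with their standard errors from the fit of surgery plus genotype (x axis, bars are ± SE), in pathway order (y axis); left, 4 TAC against 2 sham arrays, right, 3 transgenic against 3 wild-type arrays. After TAC 17 genes lie left of 0, led by Phkg1 at -0.87, and between genotypes 14 lie right of 0, led by Pfkfb2 at 0.38; none passed the adjusted test.

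Within wild type (2 TAC arrays against 1 sham, the lone sham array being assumed to vary like the TAC arrays) 17 of the 24 lay lower (52.9% of all genes), with a median of -0.14 beside -0.01 over all genes. The median was -0.04 without wild-type TAC 1. No gene of the 24 passed (0% of all tested genes did), and 1, Phkg1, had an unadjusted p under 0.05, where 3.56% of all genes did. Arrays did not overlap for 14 lower and 7 higher genes of 24, beside 38.7% and 34.4% of all genes. After Phkg1, the lower genes with the smallest p were Gbe1 (-0.40 ± 0.21), Pfkm (-0.20 ± 0.14) and Eno3 (-0.23 ± 0.18). The higher ones were Pfkfb2 (0.33 ± 0.21), Pfkp (0.84 ± 0.57), Ugp2 (0.38 ± 0.26) and Hk1 (0.48 ± 0.36). All had adjusted p = 1.00 after rounding. For Pfkfb2 the median over its probes turned to -0.21. Hk1, which traps glucose in the cell, read 7.15 in sham and 8.05 and 7.21 in TAC, so its difference was 0.06 when wild-type TAC 1 was left out and 0.90 when TAC 2 was. Pfkp likewise was at 0.38 without wild-type TAC 1 and 1.30 without TAC 2, while the median of its probes gave 0.12. On wild-type TAC 1, where Hk1 and Pfkp peaked among wild-type arrays, the atrial markers Myl7, Sln and Myl4 peaked too. Nppa did not, at 14.39 there and 14.47 on wild-type TAC 2. Over all arrays Pfkp was highest on transgenic TAC 1, at 10.52. There Myl7 (5.505), Sln (6.04) and Myl4 (9.03) were at their lowest among transgenic arrays. Within wild type all 4 atrial markers lay higher (median 2.43), and their part was not tested.

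Among transgenic arrays the sham array had low Xist and both TAC arrays high Xist, so TAC and sex cannot be told apart here. Of the 24, 16 lay lower (49.1% of all genes), with a median of -0.24 beside 0.01 over all genes. It was -0.10 without transgenic TAC 2 and -0.12 with the median over each gene's probes. None passed (0% of all genes did), and Phkg1 and Eno3 had an unadjusted p under 0.05, beside 4.86% of all genes. Arrays did not overlap for 13 lower and 3 higher genes, beside 30% and 31.1% of all genes. The lower genes with the smallest p were Phkg1, Eno3 (-0.42 ± 0.18), Pfkm (-0.30 ± 0.14) and Pygb (-0.48 ± 0.24). Among genes without overlapping arrays, the higher ones were Pfkl (0.33 ± 0.21), Gapdh (0.10 ± 0.15) and Tpi1 (0.08 ± 0.15). Ugp2 (0.27 ± 0.26) and Pfkp (0.57 ± 0.57) lay further above sham than Gapdh and Tpi1, with overlapping arrays. Pygb turned to 0.09 with Xist as a covariate and Tpi1 to -0.14 by the median over its probes, by which Pfkl was at 0.07; Pfkl was at 0.13 without transgenic TAC 2. Slc2a4, the GLUT4 gene, read 10.50 in sham and 10.41 in TAC 1 but 9.42 in TAC 2, a difference of -0.59 ± 0.37. Adjusted p was 0.991 for all of these. Without transgenic TAC 1, in a fit of 1 array against 1 that takes its spread from the wild-type TAC pair alone, 3 genes passed: Slc2a4 (-1.09, adjusted p = 0.0337), Phkg1 (-1.29, adjusted p = 0.0397) and Eno3 (-0.60, adjusted p = 0.0496). In that fit 239 of all 11167 genes passed.

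**Figure D3:**
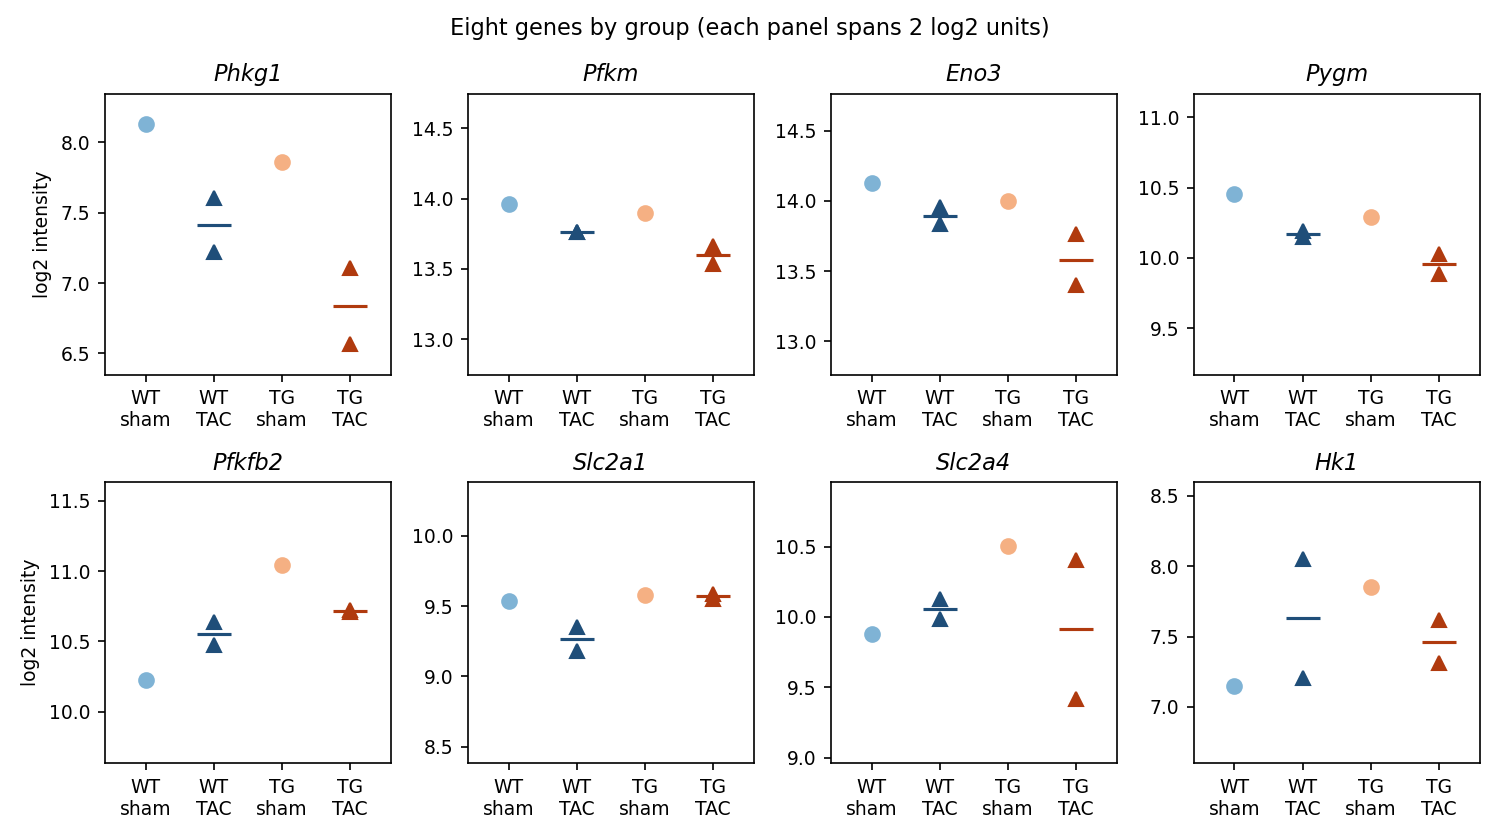
Log2 intensity (y axis, each panel spanning 2 units) of 8 genes in the 4 groups (x axis; WT wild type, TG transgenic); each symbol is 1 array and each bar the mean of 2 arrays. Phkg1, Pfkm, Eno3 and Pygm lie lower on every TAC array than on both sham arrays, Pfkfb2 lies higher on every transgenic than on every wild-type array, and the transgenic TAC arrays of Slc2a4 lie 0.99 apart.

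Whether TAC acted differently in transgenic mice is read from the transgenic difference minus the wild-type one. No gene of the 24 passed (0% of all genes did; no gene of the 24 had an unadjusted p under 0.05, beside 1.64% of all genes). Pfkfb2, which makes and breaks down the phosphofructokinase activator fructose 2,6-bisphosphate and is the isoform typical of heart, had the smallest p, at -0.66 ± 0.29 (adjusted p = 1.00). It read 10.22 in wild-type sham, 10.47 and 10.64 in wild-type TAC, 11.04 in transgenic sham, and 10.73 and 10.71 in transgenic TAC. Sham was the lowest array of the wild type and the highest of the transgenic ones. Pfkl (0.52 ± 0.29) and Hk1 (-0.87 ± 0.51) followed. Dimmer second probes of both genes gave TAC differences that lay close in the 2 genotypes. They were -0.24 within wild type and -0.19 within transgenic arrays for Pfkl, and 0.16 and 0.08 for Hk1. With the median over its probes Pfkfb2 turned to 0.13.

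Genotype was compared over 3 transgenic and 3 wild-type arrays with surgery held in the fit; this and TAC over both genotypes are called the additive comparisons below. No gene of the 24 passed in limma, beside 0.949% of all genes. Of the 24, 14 lay higher (47.6% of all genes) and 10 lower, with a median of 0.01 beside -0.01 over all genes. Without wild-type TAC 1, transgenic TAC 1 or transgenic TAC 2 the counts were 11 higher and 13 lower. At an unadjusted p under 0.05 stood Pfkfb2, higher, and Phkg1 and Eno3, lower, beside 5.65% of all genes higher and 5.89% lower. Arrays did not overlap for 2 of 24 genes higher and none lower, where 7.59% and 8.55% of all genes did not.

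These 2 were Pfkfb2 and Slc2a1. Pfkfb2 was at 0.38 ± 0.16 (1.30-fold, 3 against 3 arrays, 95% interval 0.03 to 0.74, adjusted p = 0.397), with 10.22 to 10.64 in wild-type and 10.71 to 11.04 in transgenic arrays. A second, dimmer Pfkfb2 probe gave 0.18. Without either sham array the difference was 0.16. Slc2a1, the GLUT1 gene, read 9.54, 9.35 and 9.18 on the wild-type arrays (sham, TAC 1, TAC 2) and 9.58, 9.55 and 9.59 on the transgenic ones. Its difference was 0.22 ± 0.14 (adjusted p = 0.616), and the 2 sham arrays were 0.04 apart.

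Phkg1 (-0.47 ± 0.19, adjusted p = 0.387) and Eno3 (-0.25 ± 0.11, adjusted p = 0.429) overlapped between genotypes because transgenic sham lay within the wild-type range. Ugp2 was at -0.35 ± 0.16, Ldhb at -0.33 ± 0.17, Ldha at -0.18 ± 0.11 and Gys1 at 0.29 ± 0.15. The genotypes lay closest for Pkm (0.00 ± 0.11), Pfkl (0.01 ± 0.15), Pygb (-0.01 ± 0.15) and Aldoa (0.02 ± 0.08). All 4 smooth muscle markers above the filter lay lower in transgenic arrays, with sums of 11832 to 19478 in wild type and 4580 to 6577 in transgenic arrays; Acta2, smooth muscle actin, passed the test at -1.67 ± 0.23 (adjusted p = 0.0118). Of 5 skeletal muscle markers 4 lay lower (median -0.21). There 2 had an unadjusted p under 0.05 and 2 did not overlap, beside 5.89% and 8.55% of all genes lower. Of 5 endothelial markers 4 lay lower and 1 higher (median -0.23). All 7 fibroblast markers lay higher (median 0.17) and all 5 macrophage markers did (median 0.25). None in these 4 lists passed the test. The part of these markers in the glycolysis values was not tested.

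After TAC alone (2 transgenic against 2 wild-type arrays) none passed, beside 0.206% of all genes, and no gene of the 24 had an unadjusted p under 0.05 (5.76% of all genes did). Arrays did not overlap for 7 lower genes (16.8% of all genes) and 2 higher ones (15.5%). The lower genes with the smallest p were Phkg1 (-0.57 ± 0.25, adjusted p = 0.867), Eno3 (-0.31 ± 0.14, adjusted p = 0.898), Ldha (-0.27 ± 0.14, adjusted p = 0.974) and Ldhb (-0.42 ± 0.22, adjusted p = 0.981). Without transgenic TAC 2 the differences were -0.30 for Phkg1, -0.13 for Eno3 and -0.11 for Ldha, and Ldhb was at -0.21 without wild-type TAC 2 and -0.23 without transgenic TAC 1. Phkg1 was at -0.38 without wild-type TAC 1. Ldha read 13.36 and 13.34 in wild-type TAC and 13.25 and 12.91 in transgenic TAC. Among genes without overlapping arrays, the higher ones were Slc2a1 (0.31 ± 0.19) and Pfkfb2 (0.16 ± 0.17), both with adjusted p = 0.999. Gys1 lay as far above, at 0.32 ± 0.20, with overlapping arrays. This comparison shares its arrays with those above and is no separate support for them.

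The 2 sham arrays, 1 per genotype, allow no test. None of the 24 differed by log2 1 or more (1.04% of all tested genes did). Pfkfb2 (0.82), Hk1 (0.71), Slc2a4 (0.62), Pgk1 (0.47) and Pfkp (0.42) were the genes furthest above wild type in transgenic sham, and Pfkl (-0.34), Ugp2 (-0.28) and Phkg1 (-0.27) the furthest below. The median difference was -0.01, beside -0.02 over all genes. Transgenic sham also had low Xist and wild-type sham high Xist.

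Pgk1, phosphoglycerate kinase, and Phka1 lie on the X chromosome. Pgk1 read 11.00 in wild-type sham, 11.02 and 11.12 in wild-type TAC, 11.47 in transgenic sham, and 11.43 and 10.72 in transgenic TAC. The arrays of low Xist were wild-type TAC 2, at 11.12, and transgenic sham, at 11.47, and an array of high Xist, transgenic TAC 1, lay at 11.43 between them. Phka1 lay between 6.49 and 6.91 on all arrays.

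The transgenic TAC replicates disagreed on several of these genes. Of the 24, 15 lay higher in TAC 1 than in TAC 2, with a median of 0.17, while 41.3% of all tested genes did. The gap was 1.45 for Pfkp, 0.99 for Slc2a4, 0.71 for Pgk1, 0.63 for Pgam1, the non-muscle phosphoglycerate mutase, and 0.54 for Phkg1. Of the 24 genes, 8 had their lowest value in transgenic TAC 2, where 18.0% of all genes had theirs. Between the wild-type TAC replicates the median gap was 0.00 and 12 of 24 lay higher in TAC 1.

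Dimmer probes of some genes set transgenic TAC 1 still further apart. The third Pfkm probe, with a mean of 8.24, read 8.32 in wild-type sham, 8.00 and 7.84 in wild-type TAC, and 8.61, 9.68 and 6.99 in transgenic sham, TAC 1 and TAC 2. The 2 brighter Pfkm probes differed by 0.13 and 0.18 between those last arrays. The dimmest Tpi1 probe lay 1.58 higher in TAC 1 than in TAC 2, while its 2 brighter ones lay 0.10 and 0.09 lower. The second Hk1 probe lay 1.37 higher beside 0.30 for the brighter one, and both Pfkp probes lay higher, by 1.45 and 1.73. The transcript that each probe reads was not analysed here, and the cause of the disagreement was not tested.

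**Figure D4:**
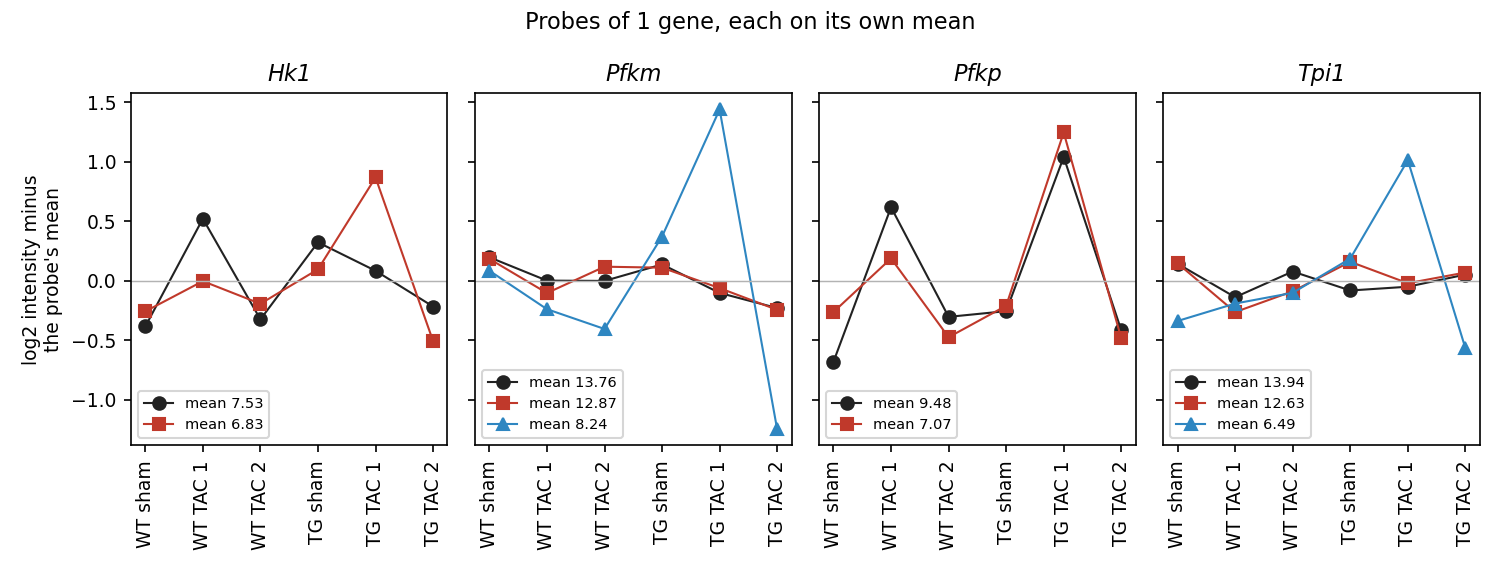
Log2 intensity of each probe above the filter for 4 genes, minus the probe's own mean over the 6 arrays (y axis), by array (x axis); each line is 1 probe, with its mean in the legend. The dimmest probes of Hk1, Pfkm and Tpi1 and both Pfkp probes peak in transgenic TAC 1, while the 2 brighter Pfkm and Tpi1 probes stay within 0.43 from lowest to highest.

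The rest of the pathway gives the setting. Of 16 other glycogen genes tested none passed in either additive comparison; after TAC 11 lay lower and 5 higher, with a median of -0.13. Ppp1r3c, which targets protein phosphatase 1 to glycogen, had the smallest p between genotypes, at 0.56 ± 0.11 (adjusted p = 0.0657). Its arrays read 12.52, 12.84 and 12.93 in wild type and 13.20, 13.55 and 13.22 in transgenic mice, without overlap. Over 14 alternatives the Ppp1r3c difference lay between 0.48 and 0.67, and it was 0.50 when either sham array was left out. In 12 of the 14 the gene did not pass, among them with Xist as a covariate (adjusted p = 0.134). It passed without the intensity filter (adjusted p = 0.0403) and without transgenic TAC 2. Ppp1r3d, a related targeting subunit, was at -0.46 ± 0.14 between genotypes (adjusted p = 0.208) and at -0.39 ± 0.14 after TAC (adjusted p = 0.457), and Ppp1r3b at -0.53 ± 0.20 after TAC (adjusted p = 0.468). Pgm1, which links glucose 6-phosphate to glycogen and takes the place of the dim Pgm2 in muscle, was at -0.12 ± 0.10 after TAC.

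Of 9 other glycolysis and gluconeogenesis enzymes tested none passed in either additive comparison. Fbp2, the muscle fructose bisphosphatase, which opposes phosphofructokinase, was the furthest from sham, at -0.91 ± 0.24 (adjusted p = 0.339), and stood at -0.77 ± 0.23 between genotypes (adjusted p = 0.201). The sham arrays read 9.59 and 8.79 (wild type, transgenic), and the TAC arrays 8.20, 9.12, 8.06 and 7.74, of which wild-type TAC 2 lay between the sham arrays. Eno2, the neuronal enolase, lay above both sham arrays on every TAC array, at 0.48 ± 0.19 (adjusted p = 0.487). Pfkfb3, a relative of Pfkfb2, had the next smallest p between genotypes, at -0.20 ± 0.10 (adjusted p = 0.532).

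Among 7 tested genes of glucose, lactate and pyruvate transport none passed in either additive comparison. Slc2a10, the GLUT10 gene, had the smallest p of this list after TAC. It read 5.89 and 6.08 in sham, 6.59 and 6.44 in wild-type TAC, and 6.46 and 6.70 in transgenic TAC, a difference of 0.56 ± 0.12 (adjusted p = 0.259) near the array median. By the median over its probes it was 0.32, and with the 5th percentile of each array subtracted 1.22. Slc2a3, the GLUT3 gene, was at 0.31 ± 0.15 after TAC (adjusted p = 0.569) and at -0.37 ± 0.14 between genotypes (adjusted p = 0.362). Tbc1d4, which holds GLUT4 vesicles inside the cell until insulin acts, was at -0.46 ± 0.15 between genotypes (adjusted p = 0.270).

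At the exit to the mitochondrion, 1 of 6 pyruvate dehydrogenase kinases and phosphatases passed between genotypes and none after TAC. Pdk3, a kinase that inhibits the complex, rose in transgenic arrays by 0.58 ± 0.11 (1.49-fold, 3 against 3 arrays, adjusted p = 0.0485), with 6.14, 6.22 and 6.33 in wild type below 6.81, 6.76 and 6.85, in 3 of 3 transgenic arrays. The call was lost in 9 of 13 alternatives, with adjusted p of 0.0523 to 1.00 there, among them without any 1 of both sham and both wild-type TAC arrays, and with Xist as a covariate (adjusted p = 0.104). Pdk3 lies on the X chromosome. Its transgenic arrays read 6.81 at low Xist (sham) and 6.76 and 6.85 at high Xist, and its wild-type arrays 6.33 at low Xist (TAC 2) and 6.14 and 6.22 at high Xist. Pdp2, a phosphatase that activates the complex, was at -1.02 ± 0.20 (adjusted p = 0.0607), with 10.45 to 11.47 in wild type and 9.59 to 10.12 in transgenic arrays. Over 14 alternatives the difference of Pdp2 lay between -1.24 and -0.60, and it was -0.81 when either sham array was left out. In 11 of the 14 Pdp2 did not pass, among them with Xist as a covariate (adjusted p = 0.142). It passed without the intensity filter (adjusted p = 0.0378) and when either transgenic TAC array was left out. In the pentose phosphate branch none of 5 tested genes passed in either additive comparison. Taldo1, transaldolase, had the smallest p there, at -0.47 ± 0.11 between genotypes (adjusted p = 0.101), with 11.68 to 11.79 in wild type and 11.24 to 11.30 in transgenic arrays.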

How the data were processed

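Heart RNA of 6 samples was hybridised to Illumina arrays. Trizol extracts, DNase I treated, were copied to biotinylated cRNA, per the labels' protocols. The authors deposited 1 linear intensity per probe and array; how they corrected and normalized it is not stated in the labels or headers. Array medians were 56.3 to 56.4. The sorted values of the arrays lay within 0.00644 log2 units of their average, the pattern left by quantile normalization, which was kept. Values below 32 (12 of them) were set to 32 and log2 was taken.

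Of 45281 probes, 34885 had 1 gene symbol, 18 several and 10378 none in the platform annotation; gene names and chromosomes are those of GRCm38.p6. Genes whose brightest probe lay above the 50th percentile of probes with a symbol were tested (11167 of 19057). Tests were lmFit and eBayes with an intensity trend (limma 3.58.1, R 4.3.3), Benjamini-Hochberg adjusted over all tested genes, threshold 0.05; errors are SEs. Surgery plus genotype gave the additive comparisons, and 4 group means the others. Steps were tested on simulated data. The number of arrays limits the precision. Alternatives are in the closing section.

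The genes and lists were chosen with earlier results of these data known. Genes given array by array were, per comparison, those past the test, the 4 with the smallest p in each direction among those without overlapping arrays, and the isoforms of a step; from the other lists, genes past the test and the 2 with the smallest p. X-linked genes of the 24, and Pdk3, were set beside Xist. Pgm1, and further genes of the 24 named, were chosen after their values were seen.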

Additional observations from a re-analysis of the deposited data

How the results depend on the processing

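No gene of the 24 passed in TAC against sham over both genotypes (14 alternatives), transgenic against wild type over both surgeries (14), TAC against sham within wild type (13), transgenic against wild type after TAC (16) or the difference of the TAC responses (11). Within transgenic arrays 0 to 3 passed with 1 array left out, and 0 in the other alternatives. Among single genes the directions that turned were Pfkfb2 with the probes of a gene taken at their median (-0.205 within wild type, 0.13 for the difference of responses), Tpi1 by the same setting within transgenic arrays (-0.14), and Pygb with Xist as a covariate (0.0864 within transgenic arrays); why these turned was not tested. The median over the 24 also turned between genotypes, from 0.01 to -0.02 when wild-type TAC 1 was left out and to -0.03 when either transgenic TAC array was. For genotype after TAC it turned from 0.01 to -0.06 when wild-type TAC 1 was left out, and to -0.15 and -0.02 when transgenic TAC 1 or TAC 2 was. In the sham pair it turned from -0.01 to 0.01 with arrays scaled to the 75th percentile. The number of all genes past the test moved more: from 1 (0 to 37) for TAC, from 106 (0 to 473) for genotype, from 23 (0 to 189) after TAC, from 0 (0 to 11) within wild type, from 0 (0 to 239) within transgenic arrays, and from 0 (0 to 5) for the difference of responses. With the number in the titles of the TAC arrays as a replicate block, 61 genes passed after TAC against 25 without the block in TAC arrays alone, and 0 of the 24 in both. Same-numbered arrays deviated together at r = -0.03. What the numbers stand for is not stated in the titles, and whether they mark something shared for some genes was not tested. Fits that leave TAC within wild type without its sham array, or TAC within transgenic arrays without its own, could not be made. Dim genes (Gys1, Gbe1, Slc2a10) lie near background, which may understate differences. With the 5th percentile of each array subtracted, Slc2a10 was at 1.22 after TAC (adjusted p = 0.218 in limma). By the median over its probes Slc2a10 was at 0.32. Phkg1, brighter with a mean of 7.42, was at -1.14 after the same subtraction. Whether the larger values are nearer the true differences was not tested.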

Other observations

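Lists that regulate or border glycolysis were set beside it. Of 10 tested genes that hypoxia induces outside glycolysis none passed in TAC against sham over both genotypes or between genotypes over both surgeries; after TAC 7 lay higher, with a median of 0.04 and differences from -0.16 to 0.25. Between genotypes Ankrd37 stood at -0.49 ± 0.18 and Kdm3a, itself a histone demethylase, at 0.35 ± 0.14, with adjusted p of 0.328 and 0.376. Of 10 transcriptional regulators of glycolysis and oxidative metabolism none passed in these comparisons, and after TAC 6 lay higher and 4 lower with a median of 0.06. Of the lower ones, Ppargc1a (-0.42 ± 0.18) and Esrra (-0.24 ± 0.13), which drive mitochondrial genes, lay lower on every TAC array than on both sham arrays, with adjusted p of 0.536 and 0.603. They were the 2 of 10 regulators without overlap in that direction, beside 8.16% of all genes. For Ppargc1a transgenic TAC 1 (9.13) lay just under transgenic sham (9.14). Of 6 subunits of AMP-activated kinase, the sensor of cellular energy, 5 lay lower after TAC with a median of -0.18 and none passed; Prkag1 and Prkag2 were at -0.29 ± 0.13 and -0.30 ± 0.14.

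Of 6 hexosamine pathway genes, which divert fructose 6-phosphate to protein glycosylation, none passed in either comparison. Gfpt1, the entry enzyme, was at 0.26 ± 0.12 between genotypes (adjusted p = 0.441), with no overlap between the 3 and 3 arrays. Of 3 polyol and glycerol genes none passed; Khk, which phosphorylates fructose, was at 0.39 ± 0.15 between genotypes (adjusted p = 0.383).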
